A study of Mus musculus with 17 samples.

Results

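The D-type cyclins and their kinases were Ccnd2 and Ccnd3, which encode cyclins D2 and D3, and Cdk4 and Cdk6, which encode the kinases that these cyclins activate. The 4 genes were picked by symbol from the 21848 genes of the single-cell gene expression matrices. They were measured in mouse germinal center (GC) B cells by droplet single-cell RNA sequencing from the 5′ end of the transcript, in which each molecule carries a unique molecular identifier (UMI). The questions addressed were how their transcript levels moved after a pulse of T cell help, and how they differed between cells with high and low activity of the kinase CDK2.

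By the methods of the study, in the time course splenic B cells of CD45.2/2 donor mice, which carried the NP-binding B1-8hi heavy chain on 1 allele (Igh B1-8hi/+), a tetO-H2B-mCherry allele at Col1a1 and a Vav-tTA transgene active in blood cells, were transferred together with DEC-205-deficient (Ly75-/-) B cells into CD45.1/1 recipients on a C57BL/6J background. The recipients had been primed with ovalbumin (OVA) in alum, received NP-OVA in alum in the footpads, and were adult mice of both sexes. Groups were the 0 h mice (n = 9, taken at day 7), untreated mice at 48 h (n = 6) and 72 h (n = 8), and mice at 48 h (n = 9) and 72 h (n = 7) after footpad injection of anti-DEC-OVA. This reagent is OVA coupled to an antibody to DEC-205, the product of Ly75. It loads antigen onto DEC-205-bearing GC B cells, so that they take up help from T follicular helper cells. By the study, the Ly75-/- cells were B1-8hi as well, and its mutation counts at these times are for DEC-205+ GC B cells. These 39 mice came from a larger experiment of 25 mice and a smaller one of 14, each run as 1 pooled library with antibody hashtags for the mice. In a separate experiment, lymph node GC B cells carrying a DHB-tdTomato reporter at Rosa26, some with an H2B-GFP reporter as well, were taken 72 h after anti-DEC-OVA. The study describes the reporter line as bred to the B1-8hi receptor. They were sorted by image into cells with a cytoplasmic reporter (CDK2hi) and cells with a nuclear reporter (CDK2low), with both populations from the same 7 mice. DHB leaves the nucleus when CDK2 phosphorylates it. Each population was 1 pooled library, so library and population cannot be told apart.

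D-type cyclins are made in response to growth signals and bind CDK4 or CDK6. The active complexes phosphorylate the retinoblastoma protein RB1 and its relatives, which frees E2F factors to switch on cyclin E and the genes of S phase. CDK2 with cyclin E then carries the cell into DNA synthesis. In GC B cells, which divide in the dark zone and receive T cell help in the light zone, cyclin D3 is known to sustain repeated divisions in the dark zone, whereas cyclin D2 follows signals from the antigen receptor and growth factors in B cells more widely.

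The cells bore the markers of GC B cells. A list of 8 GC B cell genes summed to 1757 to 2609 counts-per-million units (CPM) in each mouse and population, with none of the 8 at 0, while 6 T cell genes summed to between 4.40 and 31.1 CPM in the time course. There, 8 naive or memory B cell genes summed to 102 to 515 CPM and 6 plasma cell genes to 960 to 2987 CPM. The last was in mouse A1 of the smaller experiment at 0 h, above its GC B cell sum of 1986. The plasma cell sum was also the higher in C1 (2436 against 1757) and M17 (2124 against 1980), both treated at 48 h. The same held in B1 (1903 against 1884), untreated at 48 h. The study gave its GC gate as B220+, TCRb-, CD38- and Fas+, which would leave out T cells and most naive or memory B cells, and stained the image-sorted cells for B220, CD38 and FAS. After filtering, 23698 cells of the time course and 11888 reporter cells could be given to a mouse, with 1984426 to 20883036 UMIs a mouse and population. Median UMIs per cell differed with treatment and were 10004 to 14467 in the mice 48 h after anti-DEC-OVA against 5030 to 7455 in untreated mice at 48 h. Between 5 and 43 cell barcodes were shared by any 2 libraries. Levels below are CPM of a mouse, which is UMIs scaled to the total of that mouse, after TMM scaling, unless plain CPM is named. The mouse was the replicate in every test. In such sums over cells, fewer cells of a type and less RNA per cell cannot be told apart.

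In the GRCm39 genome Ccnd2 (ENSMUSG00000000184) lies at chr6:127102125-127129156 on the minus strand. Ccnd3 (ENSMUSG00000034165) lies at chr17:47815767-47910624, Cdk4 (ENSMUSG00000006728) at chr10:126895180-126903789 and Cdk6 (ENSMUSG00000040274) at chr5:3391485-3581008, all on the plus strand. Promoter sequences were read from RefSeq on the GRCm38.p6 build as the 250 bases before and the 50 after each gene start. Of 3 members matched, 2 held the E-box CACGTG, the palindromic motif that MYC and related factors bind. The promoters of both kinases are printed here because the 2 differ in this motif, which is in capitals.
Cdk4 promoter, chr10:127063285-127063584, plus strand: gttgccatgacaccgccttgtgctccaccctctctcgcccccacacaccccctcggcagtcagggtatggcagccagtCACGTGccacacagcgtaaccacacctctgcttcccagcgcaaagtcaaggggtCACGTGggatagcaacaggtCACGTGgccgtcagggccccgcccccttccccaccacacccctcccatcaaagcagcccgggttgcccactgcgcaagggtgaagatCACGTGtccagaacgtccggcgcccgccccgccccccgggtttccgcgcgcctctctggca
Cdk6 promoter, chr5:3343643-3343942, plus strand: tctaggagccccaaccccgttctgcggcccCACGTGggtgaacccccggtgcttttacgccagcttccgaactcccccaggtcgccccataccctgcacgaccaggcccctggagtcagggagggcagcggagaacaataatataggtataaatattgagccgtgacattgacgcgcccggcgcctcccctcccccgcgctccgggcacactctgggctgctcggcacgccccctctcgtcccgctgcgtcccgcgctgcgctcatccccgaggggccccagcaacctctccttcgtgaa
The Cdk4 promoter held 4 copies, which began at -172, -118, -98 and -11 from the gene start, and the Cdk6 promoter held 1, at -220. Neither of the 2 Ccnd3 promoters in the table held these letters, and Ccnd2 has no entry. Of 32851 mouse promoters of this length, 2349 (7.15%) held the motif and 29 (0.0883%) held 3 or more copies. A match of letters is a description of the sequence, not a measured binding site.

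Cyclin D2 was the member that changed most in size. Its level was lower 48 h after anti-DEC-OVA than in untreated mice of the same day, and it was lower in CDK2hi than in CDK2low cells. At 0 h the larger experiment gave 14.0, 4.61, 9.21, 4.96, 4.09 and 7.58 CPM of Ccnd2 and the smaller 6.52, 20.4 and 4.83. In untreated mice at 48 h the values were 7.88, 10.2, 9.77 and 20.7 in the larger and 21.3 and 12.3 in the smaller experiment. Mice treated with anti-DEC-OVA and taken at 48 h gave 4.97, 4.02, 5.93, 7.23, 3.70 and 6.91 in the larger and 7.25, 5.81 and 3.63 in the smaller experiment. Each of the 9 treated mice therefore lay below each of the 6 untreated mice. The difference was -1.35 ± 0.33 (log2 ± SE, adjusted p = 0.000898, edgeR's quasi-likelihood test with Benjamini-Hochberg adjustment over all genes tested), in a comparison in which 47.3% of 10270 genes passed. It was -1.19 ± 0.35 in the larger and -1.60 ± 0.43 in the smaller experiment. With each cell thinned to 3321 UMIs it was -0.69 with an adjusted p of 0.103 (edgeR). Thinning makes UMIs per cell equal, so it also gives every cell the same weight, and it lowers the counts. It left out cells with fewer UMIs, 372 of 6053 in treated and 678 of 3924 in untreated mice at 48 h. Which of these changes moved the value was not tested. The T cell gene list moved the same way as Ccnd2, from 14.9 to 21.5 plain CPM in untreated mice to 4.40 to 10.2 in treated mice. So did the naive or memory B cell genes, at 240 to 421 plain CPM in untreated and 102 to 201 in treated mice with no overlap. Cells with the B1-8hi receptor pairing made up 70.5 to 77.7% in treated and 62.3 to 67.2% in untreated mice of the larger experiment. In the smaller experiment they made up 53.1 to 58.0% and 34.7 and 38.8%. The study kept only cells with this pairing, whereas levels here are over all kept cells, 57.3% of them paired in the time course. The part of either list or of this share in the result was not tested. Against 0 h the treated mice at 48 h differed by -0.74 ± 0.33 (adjusted p = 0.0545), with 51.7% of genes called.

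At 72 h the 2 experiments gave different pictures of Ccnd2. Their libraries also stood apart, and in treated mice at 72 h mitochondrial UMIs were 2.49 to 2.81% in the larger and 5.23 to 5.78% in the smaller experiment. The B1-8hi pairing was carried by 61.9 to 69.2% and 32.2 to 42.3% of cells, and median UMIs per cell were 7208 to 8673 and 5495 to 6399. The part of these differences in the result was not tested. Untreated mice at 72 h held 21.7, 11.4, 14.5, 11.8 and 9.88 CPM in the larger and 14.2, 35.7 and 23.7 in the smaller experiment. Mice 72 h after anti-DEC-OVA held 2.29, 4.26, 2.998 and 3.98 in the larger and 17.8, 37.7 and 20.9 in the smaller experiment. In the larger experiment the treated mice lay below all untreated mice, and in the smaller experiment the groups overlapped over most of their range. The treatment effect was -2.09 ± 0.46 (adjusted p = 0.00274, edgeR) in the larger experiment, where 7.61% of genes were called. In the smaller experiment it was -0.03 ± 0.37 (adjusted p = 0.998), where 0.408% were called. The difference between the 2 effects was -2.06 ± 0.60, with an unadjusted p of 0.00148 and an adjusted p of 0.621 over all genes (0.019% called). Fitted over both experiments the effect at 72 h was -0.80 ± 0.33 (adjusted p = 0.136), with 8.66% of genes called. Without mouse E2 of the smaller experiment, the treated mouse at 37.7 CPM, it was -1.17 with an adjusted p of 0.0168 (edgeR). In the larger experiment naive or memory B cell genes summed to 254 to 325 plain CPM in treated and 331 to 451 in untreated mice. In the smaller they overlapped, at 195 to 264 and 230 to 346. T cell genes overlapped in the larger (9.38 to 18.5 and 10.2 to 15.6) but not in the smaller experiment (4.40 to 8.07 and 12.1 to 24.8). The part of either list in the result was not tested.

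From 48 to 72 h of treatment, the change of Ccnd2 split by experiment as well. Over both it was 0.86 ± 0.35 (adjusted p = 0.0406, edgeR), with 48.9% of genes called. This call did not hold without any 1 of 8 mice (M13 and M16 of the larger, C1, C2, C3, E1, E2 and E3 of the smaller experiment), with values from 0.50 without E2 (adjusted p = 0.247) to 1.03 over all mice left out in turn. It was also lost with cells thinned to equal depth (0.46, adjusted p = 0.336). In the larger experiment it was -0.71 ± 0.48 (adjusted p = 0.245; 39% called) and in the smaller experiment 2.11 ± 0.41 (adjusted p = 0.000175; 28.5% called). The pooled rise therefore came with the smaller experiment alone. The difference between the 2 changes was -2.82 ± 0.62, with an unadjusted p of 5.05e-05 and an adjusted p of 0.0665 (0.0664% called). Within light-zone cells whose receptor carried the B1-8hi pairing, treated mice at 72 h held 27 Ccnd2 UMIs in 778 cells of the larger experiment and 146 UMIs in 241 cells of the smaller one. This is 3.54 against 57.0 plain CPM, while the untreated mice of the same time held 24.4 and 58.3. Thus the gap at 72 h was also present among B1-8hi cells of 1 zone.

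Ordered by mean level, Ccnd2 in the time course stood at 5.50 ± 1.48 CPM (SD, n = 9) at 48 h treated, 8.47 ± 5.47 (n = 9) at 0 h, 12.9 ± 13.4 (n = 7) at 72 h treated, 13.7 ± 5.85 (n = 6) at 48 h untreated and 17.8 ± 8.75 (n = 8) at 72 h untreated. The place of 72 h treated is a mean of 2 unlike experiments. In the larger it was the lowest group (3.38, below 5.46 at 48 h treated) and in the smaller the highest (25.5, beside 24.5 at 72 h untreated). None of the comparisons of neighbours in this order that were tested passed. From 0 to 72 h untreated mice differed by 0.93 ± 0.31 on the log2 scale, which did not pass (adjusted p = 0.0746, edgeR; 3.95% of genes called). The spread of Ccnd2 between mice of a group was wide for its level. Its biological coefficient of variation in the fit over both experiments was 44.2%, above that of 99.1% of 10270 genes, whose median was 6.68%. Ccnd3, Cdk4 and Cdk6 stood at 7.34%, 8.09% and 11.2%. This fit has 1 shift per experiment for all groups, so the 72 h split of Ccnd2 between experiments also enters its value. Fitted alone, the larger experiment gave 29.6% for Ccnd2 (median of all genes 6.27%) and the smaller 34.2% (median 7.39%). Over the 39 mice, none of 7 measures (share of G1 cells, of light-zone cells, of mitochondrial UMIs and of B1-8hi cells, median UMIs per cell, and sums of naive or memory and of plasma cell genes) was related to the residual Ccnd2 level, and the lowest adjusted p was 0.622 (permutation tests with Benjamini-Hochberg adjustment over 7 relations). That value was shared by 2 measures. Pearson's r was 0.28 with median UMIs per cell (Spearman's rho 0.27), and 0.26 without the 2 mice farthest from the median, 0.28 within the larger and 0.31 within the smaller experiment. It was -0.29 with the share of G1 cells (rho -0.21), and in the same order -0.36, -0.20 and -0.52. With the share of light-zone cells r was 0.17 (rho 0.096), and 0.070, -0.18 and 0.58 in that order.

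**Figure D1:**
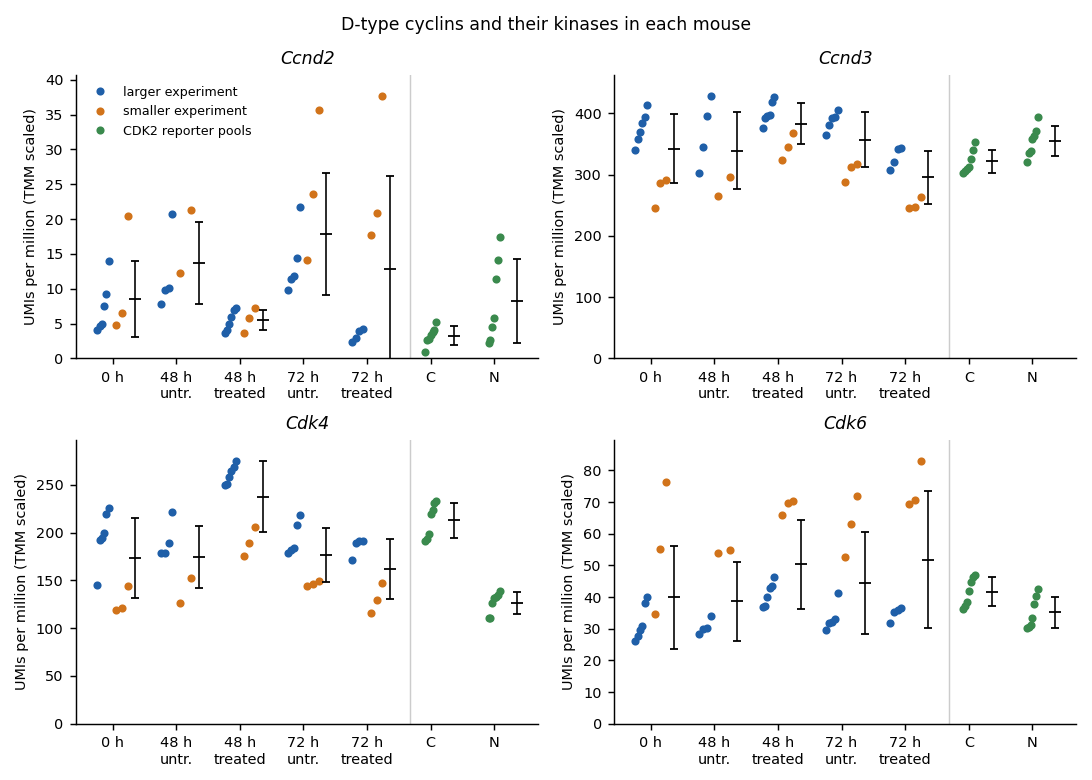
Level of each gene in each mouse (y axis, TMM-scaled CPM) by group (x axis), with points coloured by experiment and the black mark giving mean ± SD. Ccnd2 of the 9 treated mice at 48 h lies between 3.63 and 7.25 and below all 6 untreated mice, and at 72 h the treated mice split by experiment into 2.29 to 4.26 and 17.8 to 37.7.

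In the reporter experiment Ccnd2 was lower in CDK2hi cells in 6 of 7 mice. CDK2hi cells of mice M1, M10, M3, M4, M5, M6 and M7 held 3.75, 0.928, 3.36, 2.75, 2.65, 4.11 and 5.17 CPM, and CDK2low cells of the same mice held 14.2, 2.57, 11.4, 4.52, 5.75, 17.4 and 2.23. The exception was mouse M7. The difference paired by mouse was -1.36 ± 0.22 (adjusted p = 4.15e-06, edgeR), with 73.5% of 10597 genes called. It ranged from -1.65 to -1.10 when 1 mouse at a time was left out. T cell genes summed to 5.24 to 9.60 plain CPM in CDK2hi cells, below every sum of CDK2low cells. The CDK2low cells of M6, with the highest Ccnd2 value, also held the highest T cell gene sum of 83.1 plain CPM, against 13.0 to 21.1 in the other 6 mice. Without M6 the Ccnd2 difference was -1.26. Naive or memory B cell genes summed to 101 to 181 plain CPM in CDK2hi and 330 to 524 in CDK2low cells. The part of either list in the result was not tested.

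Cyclin D3, the D-type cyclin tied to dark-zone divisions, moved in opposite directions at the 2 times after anti-DEC-OVA. At 48 h treated mice held 323 to 427 CPM (median 393) and untreated mice 266 to 429 (median 324), so the groups overlapped. The difference was 0.18 ± 0.06 (adjusted p = 0.00637, edgeR). It was 0.10 (adjusted p = 0.217) in the larger and 0.29 (adjusted p = 0.0205) in the smaller experiment, 0.06 with cells thinned to equal depth (adjusted p = 0.409) and 0.12 with library totals in place of TMM factors (adjusted p = 0.0584).

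At 72 h Ccnd3 was lower after treatment. Treated mice of the larger experiment held 307 to 343 CPM against 365 to 406 in untreated mice, and those of the smaller experiment 245 to 264 against 288 to 318. The groups did not overlap within either experiment. The difference was -0.26 ± 0.06 (adjusted p = 0.00214, edgeR), and was -0.23 in the larger (adjusted p = 0.0305) and -0.30 in the smaller experiment (adjusted p = 0.134), which on its own did not pass. From 48 to 72 h after treatment Ccnd3 fell by 0.35 ± 0.05 on the log2 scale (adjusted p = 1.03e-06). The treatment effect at 72 h was thus lower than that at 48 h by a difference of -0.44 ± 0.08 (adjusted p = 6.18e-05), in a contrast that called 31.4% of genes. In the reporter experiment CDK2hi cells held 302 to 354 CPM and CDK2low cells 321 to 395. Ccnd3 was lower in CDK2hi cells in 7 of 7 mice, by -0.14 ± 0.03 (adjusted p = 2.91e-05).

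Cdk4, the kinase present in most dividing cells, rose at 48 h after anti-DEC-OVA. Treated mice of the larger experiment held 250 to 275 CPM against 179 to 221 in untreated mice, and those of the smaller 175 to 205 against 126 and 152. The groups did not overlap within either experiment. The difference was 0.44 ± 0.06 (adjusted p = 4.72e-07, edgeR), and against 0 h it was 0.45 (adjusted p = 2.58e-08). It was 0.47 with cells thinned to equal depth. At 72 h treated mice held 116 to 191 CPM and untreated mice 144 to 218, and the difference was -0.10 ± 0.07 (adjusted p = 0.396). From 48 to 72 h after treatment Cdk4 fell by 0.51 ± 0.06 (adjusted p = 1.90e-08), and the effect at 72 h differed from that at 48 h by -0.55 ± 0.09 (adjusted p = 3.07e-05). CDK2hi cells held 191 to 233 CPM and CDK2low cells 110 to 139, with no overlap. That difference was 0.75 ± 0.03 (adjusted p = 4.22e-18) and 7 of 7 mice were higher in CDK2hi cells.

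Cdk6, the other kinase partner of D-type cyclins, known for its role in blood cells, rose at 48 h too. At 0 h it stood at 26.3 to 40.03 CPM in the larger and 34.8 to 76.4 in the smaller experiment, ranges that overlap. At 48 h treated mice of the larger experiment held 36.8 to 46.2 CPM against 28.5 to 34.1 in untreated mice, and those of the smaller 66.0 to 70.3 against 53.9 and 55.0. The groups did not overlap within either experiment. The difference was 0.39 ± 0.10 (adjusted p = 0.00081, edgeR), but 0.18 (adjusted p = 0.266) with cells thinned to equal depth. At 72 h it was 0.14 ± 0.10 (adjusted p = 0.445), and from 48 to 72 h -0.09 ± 0.09 (adjusted p = 0.432). CDK2hi cells held 36.3 to 47.1 CPM and CDK2low cells 30.2 to 42.5, higher in CDK2hi cells in 6 of 7 mice. The difference of 0.25 ± 0.05 (adjusted p = 0.000109) became 0.05 (adjusted p = 0.36) with library totals in place of TMM factors.

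**Figure D2:**
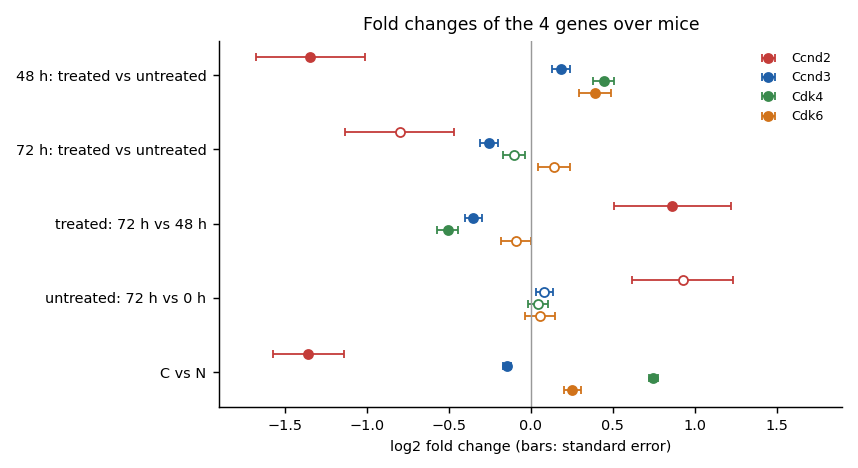
Log2 difference ± SE of each gene (x axis) in the main comparisons (rows), from edgeR, with filled points for an adjusted p below 0.05 and open points otherwise. Cdk4 lies at 0.44 at 48 h, at -0.10 at 72 h and at 0.75 between CDK2hi and CDK2low cells, and Ccnd2 lies at -1.35, -0.80 and -1.36 in the same comparisons.

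The scaling of the libraries shifted these comparisons as a whole. Without TMM factors the median over all genes between CDK2hi and CDK2low cells was -0.23, and the called genes were 2449 higher and 6010 lower in place of 3767 and 4021. At 48 h the split of higher and lower genes against untreated mice was 2544 and 2311 with TMM factors and 1889 and 3089 without, and against 0 h it was 2668 and 2640 with and 1968 and 3588 without. Between 48 and 72 h after treatment it was 2476 and 2549 with and 3514 and 1834 without, and for the difference of the treatment effects 1481 and 1742 with and 2086 and 1260 without. Ccnd2, Ccnd3 and Cdk4 kept their direction in these comparisons without TMM factors.

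The share of cells with at least 1 UMI of a member was compared after each cell was thinned to 3321 UMIs, with shallower cells left out (372 to 920 cells a group of the time course, 320 CDK2hi and 135 CDK2low cells). At 48 h Cdk4 was found in 44.4 ± 6.93% of cells with treatment and 34.6 ± 4.42% without (SD over 9 and 6 mice; adjusted p = 0.00254, exact two-sided permutation test within experiments, adjusted over 16 comparisons), and Cdk6 in 11.9 ± 4.43% and 9.91 ± 3.83% (adjusted p = 0.00457 by the same exact test). For Ccnd3 the shares were 62.1 ± 3.56% after treatment and 60.7 ± 5.95% without (adjusted p = 0.43, exact permutation test). Ccnd2 was found in 1.26 ± 0.52% and 2.00 ± 0.83% (adjusted p = 0.0887, exact permutation test). The kinases thus differed in detection where the cyclins did not pass. Before thinning the Ccnd2 shares at 48 h were 2.67 and 3.67% (adjusted p = 0.0417, exact permutation test).

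At 72 h the shares of both cyclins in thinned cells were lower after treatment over both experiments. Those of Ccnd3 were 57.0 ± 4.16% after treatment and 63.5 ± 4.10% without (adjusted p = 0.00254, exact permutation test), and those of Ccnd2 1.77 ± 1.41% and 3.13 ± 1.13% (adjusted p = 0.0381, exact permutation test). Before thinning the difference for Ccnd3 was 1.19 percentage points in the opposite direction. The Ccnd2 shares of the 2 experiments were given apart as a description. Among light-zone cells with the B1-8hi pairing, not thinned, they were 2.57% treated and 7.90% untreated in the larger, and 12.4% and 11.3% in the smaller experiment. Cdk4 was found in 33.1 ± 5.96% and 36.5 ± 6.32% of cells (adjusted p = 0.0527, exact permutation test). CDK2hi cells held Cdk4 in 42.01 ± 4.41% and Ccnd3 in 57.1 ± 2.64% of cells, against 28.5 ± 1.79% and 67.7 ± 1.50% of CDK2low cells. Both differences had an exact sign-flip permutation p of 0.0156, the smallest that 7 pairs allow, and an adjusted p of 0.0357. Ccnd2 was found in 0.453% and 1.31% (adjusted p = 0.0527, exact permutation test), and Cdk6 in 11.4% and 10.6% (adjusted p = 0.43, exact permutation test). As a background, the T cell gene Cd3e was found in 0 to 0.422% and the myeloid gene Lyz2 in 0.0771 to 0.247% of thinned cells as group means. The Ccnd2 share of CDK2hi cells was close to these.

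Each cell was given to the light or dark zone by the sign of the difference of 2 gene scores whose lists hold none of the 4 members. Of 23698 cells, 1581 (6.67%) lay within 0.05 of the cut. Cd83, a light-zone gene, was higher by 2.17 and Cxcr4, a dark-zone gene, lower by 1.56 (log2) in light-zone cells. Both genes are in the lists from which the scores were made, so these differences follow from the split and are no independent check of it. All kept cells were split, so the light-zone class can also hold cells that are not GC B cells. Within this class, cells with a Ccnd2 UMI were lower in all 8 GC B cell genes. Of 10 light-zone genes, 6 were higher in them and 2 lower, as given below. Ccnd2 was the member that differed most by zone. It averaged 24.3 plain CPM in light-zone and 1.75 in dark-zone cells, a 13.9-fold ratio of means, with 7 mice at 0 in the dark zone. It was higher in the light zone in 39 of 39 mice of the time course and in 14 of 14 mouse populations of the reporter experiment. The difference was 3.79 ± 0.17 (adjusted p = 1.10e-28, edgeR, paired by mouse), with 67.5% of genes called.

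Ccnd3 had the opposite pattern, with 305 plain CPM in light-zone and 374 in dark-zone cells, and was lower in the light zone in 38 of 39 mice. Its difference was -0.31 ± 0.02 (adjusted p = 7.43e-20, edgeR). Cdk4 and Cdk6 differed little by zone. Cdk4 stood at 197 and 177 plain CPM (difference 0.14 ± 0.03, adjusted p = 5.02e-06) and Cdk6 at 48.8 and 42.9 (difference 0.14 ± 0.04, adjusted p = 0.00543). The zone difference held within G1-classed cells, where 50.6% of genes were called, at 2.11 ± 0.21 for Ccnd2, -0.43 for Ccnd3, 0.23 for Cdk4 and 0.42 for Cdk6, each passing. In cells with the B1-8hi pairing alone, where 64.1% of genes were called, it was 3.99 ± 0.20 for Ccnd2, -0.28 for Ccnd3 and 0.18 for Cdk4, while Cdk6 at 0.08 did not pass (adjusted p = 0.158).

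**Figure D3:**
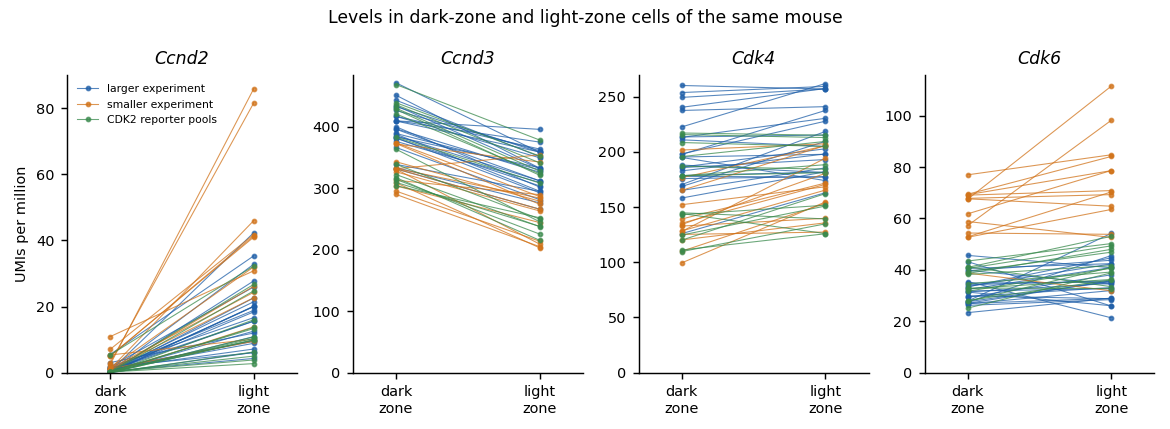
Plain CPM of each gene (y axis) in the dark-zone and light-zone cells of each mouse (x axis), with a line joining the same mouse (39 of the time course and 14 mouse populations of the reporter experiment). Ccnd2 rises from dark to light in every line and Ccnd3 falls in 38 of 39 lines of the time course.

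The share of light-zone cells was 25.4 to 39.1% in treated mice at 48 h and 51.3 to 58.1% in untreated mice, and 27.0 to 42.01% in CDK2hi and 49.8 to 61.6% in CDK2low cells. Treatment was therefore compared within each zone. In light-zone cells at 48 h Ccnd2 differed by -0.57 ± 0.34 (adjusted p = 0.197, edgeR; 34.5% of genes called), and in dark-zone cells by -1.76 ± 0.57 (adjusted p = 0.013; 35.1% called). The dark-zone value rests on levels near 0. These were 0.175 to 1.33 plain CPM in treated and 0.348 to 5.49 in untreated mice, with overlap. The 2 zones and all cells thus gave different values, and the differences between them were not tested. Cdk4 rose by 0.44 in the light and 0.45 in the dark zone, and Cdk6 by 0.35 and 0.42, each passing. Ccnd3 rose by 0.21 in the light zone (adjusted p = 0.0349) and differed by 0.06 in the dark zone (adjusted p = 0.432). Between CDK2hi and CDK2low light-zone cells Ccnd2 differed by -0.55 ± 0.18 (adjusted p = 0.00981; 65.4% called), Ccnd3 by -0.34, Cdk4 by 0.66 and Cdk6 by 0.24. In the dark zone, where Ccnd2 was too low to be tested, Ccnd3 differed by -0.20, Cdk4 by 0.82 and Cdk6 by 0.37 (67.1% called).

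Cells were also classed as G1, S or G2/M from lists that hold none of the members. At 48 h G1 cells made up 16.4 to 24.6% of cells in treated and 44.8 to 57.1% in untreated mice. The part of this shift in the levels over all cells was not tested. Cdk4 was highest in S cells, Cdk6 was about as high in G2/M as in S cells, and Ccnd2 was highest in G1 cells. Against G1 cells of the same mouse, S cells differed by 1.47 ± 0.03 for Cdk4, 0.82 ± 0.06 for Cdk6, 0.34 ± 0.03 for Ccnd3 and -0.79 ± 0.18 for Ccnd2, each passing in edgeR with 84.7% of genes called. G2/M cells differed from G1 cells by 0.82 for Cdk4, 0.80 for Cdk6 and -1.32 ± 0.19 for Ccnd2, which passed, and by -0.04 for Ccnd3, which did not (adjusted p = 0.12; 80.7% called). Cdk4 averaged 95.5 to 116 plain CPM in G1 cells and 258 to 281 in S cells over the 5 groups of the time course. For Ccnd2 in treated mice at 48 h the means were 21.0 ± 8.70 plain CPM in G1, 3.04 ± 2.38 in S and 4.09 ± 2.31 in G2/M (SD, n = 9). In untreated mice at 48 h they were 17.7 ± 8.70, 14.6 ± 8.68 and 10.02 ± 8.74 (n = 6).

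**Figure D4:**
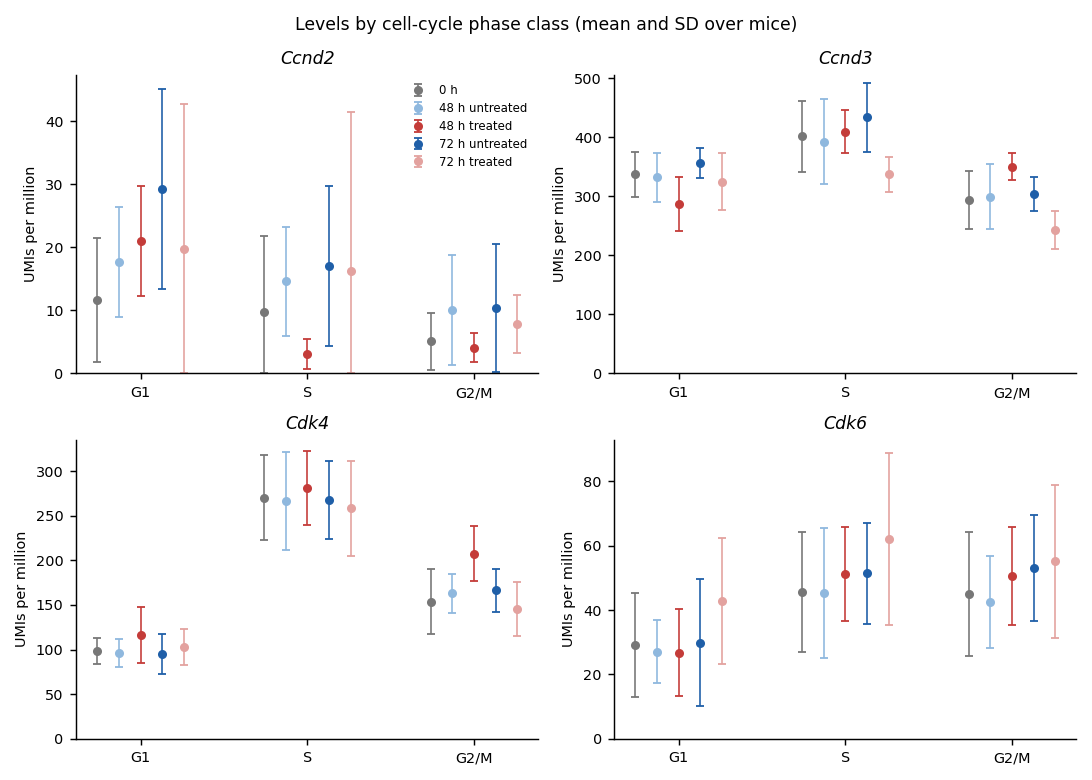
Plain CPM of each gene (y axis, mean ± SD over mice) in cells classed as G1, S and G2/M (x axis) for the 5 groups of the time course. Cdk4 is highest in S cells of every group (258 to 281) and Ccnd2 of treated mice at 48 h falls from 21.0 in G1 to 3.04 in S.

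The step in Ccnd2 from G1 to S was steeper after treatment at 48 h, at -2.65 ± 0.42 against -0.23 ± 0.41 in untreated mice. The difference was -2.42 ± 0.59 (adjusted p = 0.0135, edgeR; 1.31% called). For Ccnd3 the step from G1 to S was higher by 0.30 ± 0.08 (adjusted p = 0.0349) and that from G1 to G2/M by 0.47 ± 0.08 (adjusted p = 4.90e-05; 2.05% called). Within G1 cells at 48 h, where 9.32% of genes were called, Ccnd2 differed by 0.28 (adjusted p = 0.73), Ccnd3 by -0.21 ± 0.07 (adjusted p = 0.0464), Cdk4 by 0.29 ± 0.09 (adjusted p = 0.0296) and Cdk6 by -0.07. Within S cells (12.2% called) Ccnd2 differed by -2.28 ± 0.56 (adjusted p = 0.00442) and the other members did not pass. In G2/M cells (17.5% called) Ccnd2 differed by -1.29 ± 0.41 (adjusted p = 0.022), Ccnd3 by 0.25 (adjusted p = 0.00908) and Cdk4 by 0.36 (adjusted p = 0.000812), while Cdk6 at 0.29 did not pass (adjusted p = 0.0745).

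At 72 h Ccnd3 fell within S and G2/M cells. The difference was -0.35 in S cells (adjusted p = 0.000377, edgeR; 4.3% of genes called) and -0.31 in G2/M cells (adjusted p = 0.00957; 3.37% called). In G1 cells (8.66% called) Ccnd3 differed by -0.14 ± 0.07, which did not pass (adjusted p = 0.216). Ccnd2 in G1 cells differed by -1.22 ± 0.38 over both experiments (adjusted p = 0.0344), which again were unlike. Treated mice of the larger experiment held 1.36 to 4.11 plain CPM against 13.7 to 54.3 in untreated mice, and those of the smaller 26.3 to 57.9 against 14.5 to 45.5, with overlap. The reporter populations differed most in phase, with 7.39 to 13.7% of CDK2hi and 71.0 to 83.1% of CDK2low cells in G1. Within G1 cells (38.3% called) Cdk4 was higher in CDK2hi cells by 0.48, and Ccnd2 differed by 0.57 ± 0.28 without passing (adjusted p = 0.108). Within S cells (47.9% called) Cdk4 was higher by 0.24 and Ccnd2 lower by 0.86 ± 0.33 (adjusted p = 0.0284). Within G2/M cells, which 3 mice held in both populations in sufficient number, Cdk4 was higher by 0.43 (23.8% called). Cdk4 thus differed in the same direction in each phase class.

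Ccnd2 transcripts sat in few cells. Of 23698 cells of the time course, 741 (3.13%) held a Ccnd2 UMI. Of its 2435 UMIs, 75.8% were in 277 cells (1.17%) with 3 or more, and the highest cell held 34. By class, 338 cells held 1 UMI, 126 held 2, 169 held 3 to 5, 63 held 6 to 10 and 45 held 11 to 34. Light-zone cells made up 87.9% of the cells with a Ccnd2 UMI and 46.6% of all cells. Cells with the B1-8hi pairing held 67.6% of the UMIs, and 45 cells with 3 or more UMIs of T cell genes held 5.46%. Cells with that many T cell UMIs were 6.07% of the cells with a Ccnd2 UMI and 0.405% of all cells, not matched for depth. Among CDK2hi cells 84 of 7503 (1.12%) and among CDK2low cells 112 of 4385 (2.55%) held a UMI, with up to 12 and 38 in 1 cell. Cells with a Ccnd2 UMI had a median of 12622 UMIs in all, against 7602.5 over all cells.

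**Figure D5:**
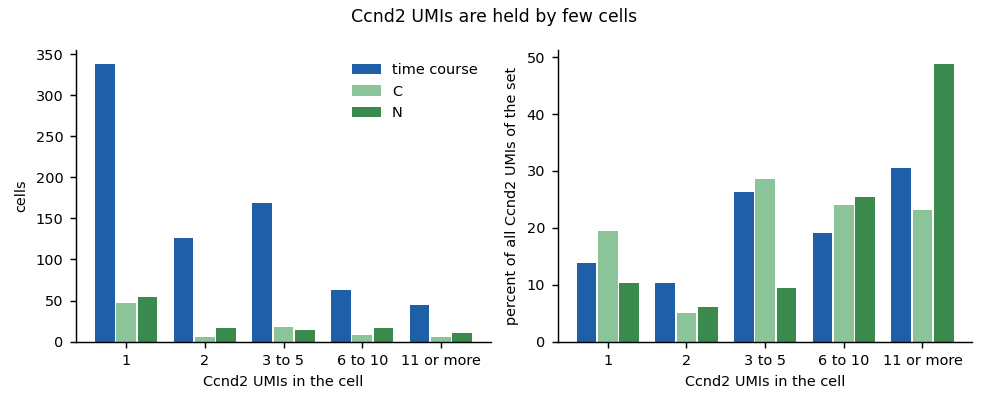
Number of cells (left) and percent of the Ccnd2 UMIs of a set (right) by the number of Ccnd2 UMIs in a cell (x axis), over cells with at least 1. Bars are coloured by set, which is the time course, CDK2hi cells (C) or CDK2low cells (N). In the time course the 338 cells with 1 UMI hold 13.9% of the UMIs, and the 45 cells with 11 to 34 hold 30.5%.

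Light-zone cells with and without a Ccnd2 UMI were compared within 31 mice (600 and 8642 cells), and 68.6% of 7182 genes differed in edgeR. Cells were split by detection of Ccnd2 itself, so Ccnd2 is not read here. All 8 GC B cell genes were lower in cells with Ccnd2, among them Bcl6 (-1.47), the master factor of the GC B cell, S1pr2 (-1.42), a receptor that keeps cells in the GC, and Nuggc (-2.15). The 4 B cell genes and the 5 tested dark-zone genes were lower as well, with Gcsam in both the dark-zone and the GC B cell list. The zone lists also made the scores that chose these cells, so their genes are no independent check here. The 3 plasma cell genes that could be tested were higher, namely Jchain (0.99), Mzb1 (1.65) and Xbp1 (1.15). Of 10 light-zone genes 6 were higher, such as Nfkbia (1.16) and Ebi3 (1.99), and 2 lower, Icosl (-2.24) and Cd86 (-0.75). Myc, which T cell help induces, was higher by 1.92 ± 0.12 (adjusted p = 2.52e-18). Among the other members Ccnd3 was lower (-0.57), and Cdk4 (0.58) and Cdk6 (0.42) were higher. Of 13 pocket protein and E2F genes 3 were higher and 8 lower.

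In cells with the B1-8hi pairing alone (24 mice, 355 and 3746 cells, 63.2% of genes called), Myc was higher by 1.56, the 8 GC B cell genes were lower and the 3 plasma cell genes higher. For shares, light-zone cells were split by Ccnd2 before thinning, and only the other genes were counted after it. The classes thus still differed in original depth (median 12715 UMIs with and 6334 without Ccnd2 over all light-zone cells). Myc was found in 29.3% (182 of 622) of thinned cells with and 7.34% (632 of 8610) without Ccnd2. Exact 95% binomial intervals were 25.7 to 33.0% and 6.80 to 7.91%. Bcl6 was found in 24.6 and 57.7% of them, and Batf, a factor of activated lymphocytes, in 40.2 and 8.92%. Ccnd3 was found in 38.7 and 57.1%, Cdk4 in 50.2 and 37.9% and Cdk6 in 15.8 and 11.1%. Prdm1 and Sdc1, which mark plasma cells, were found in 4.98 and 6.11% of cells with and 0.523 and 0.279% without Ccnd2, and the T cell gene Cd3e in 3.22 and 0.0697%. Jchain, which was higher in summed level, went the other way in detection and was found in 45.5 and 76.8%. The myeloid gene Lyz2 was found in 0.322 and 0.163%, with overlapping intervals of 0.0390 to 1.16% and 0.0889 to 0.273%. Over both zones of the time course, 4.86% of cells with a Ccnd2 UMI and 0.633% of all cells held 3 or more UMIs of myeloid genes. In the reporter experiment the values were 0 and 0.120% for CDK2hi and 0 and 0.547% for CDK2low cells. These counts were not matched for depth. Of the 277 cells with 3 or more Ccnd2 UMIs in the time course, 62 (22.4%) held 50 or more UMIs of plasma cell genes, against 3.99% of all cells, a count that was not matched for depth. In the reporter experiment it was 0 of 31 against 1.04% of CDK2hi cells, and 1 of 42 (2.38%) against 2.76% of CDK2low cells, so that no excess was detectable in these few cells. The binomial intervals cover counting error within pooled cells only. Chosen after their values were seen, Sub1 (2.96), Slpi (2.88) and Batf (2.76) were among the genes most raised in cells with Ccnd2, and Sox5 (-2.85), Hmces (-2.58) and Bach2 (-2.41) among those most lowered.

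Across the 39 mice, with the mean of each experiment removed, the genes whose levels most resembled each member were listed from 6741 genes as a description. For Cdk4 they were Ranbp1 (Pearson's r 0.97) and Ran (0.96), of nuclear transport, and the mitochondrial gene Ndufab1 (0.96). For Ccnd3 they were the ribosomal protein genes Rpl38 (0.76), Rpl41 (0.76) and Rpl36 (0.75), and for Cdk6 Slc29a1 (0.77), a nucleoside transporter, Cluh (0.77) and Ftsj1 (0.77). For Ccnd2 they were Batf (0.81), Nup210 (0.78) and Pkib (0.74). With the means of each group in each experiment removed Batf still came first for Ccnd2 at 0.66. Between members, r was 0.60 for Cdk4 and Cdk6, 0.55 for Cdk4 and Ccnd3, and -0.17 for Ccnd2 and Cdk4. With the means of each group in each experiment removed, Ccnd2 stood at 0.41 with Cdk4 and 0.40 with Cdk6, so the sign for Cdk4 turned with this choice. The mice of an experiment share 1 library.

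The rest of the pathway was followed through a list of 45 genes, of which 44 were tested. At 48 h 19 rose and 8 fell (61.4%, median 0.12). The 6 tested inhibitor genes gave 3 higher and 0 lower, the 13 pocket protein and E2F genes 8 and 1, and the downstream genes of CDK2 and cyclin E 3 of 3 higher. Ccne1 (0.58) and Ccne2 (0.55), the E-type cyclins that activate CDK2, and E2f8 (0.55), a repressing E2F, rose most, and Klf2 (-0.83) and Foxo3 (-0.56), factors of resting lymphocytes, and Fbxo4 (-0.50) fell most. From 48 to 72 h after treatment 8 rose and 21 fell (65.9%, beside 48.9% of all genes), with Ccne1 (-0.69), the chaperone gene Hsp90ab1 (-0.67) and Ccne2 (-0.59) lowest and E2f5 (0.41), Foxo3 (0.40) and Foxo1 (0.33) highest. At 72 h against untreated mice 3 of 44 passed (6.82%), close to the share of all genes. Among them were Cdkn1b (-0.48), which encodes a CDK inhibitor, and E2f6 (-0.31), both named after their values were seen.

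Between CDK2hi and CDK2low cells 25 pathway genes were higher and 12 lower (84.1%, median 0.20). Among them 5 of 6 inhibitors, 11 of 13 pocket protein and E2F genes and 3 of 3 downstream genes were higher in CDK2hi cells. E2f8 (2.79), E2f7 (2.45) and Ccne2 (1.84) were highest, and Foxo3 (-0.91), Klf2 (-0.84) and Foxo1 (-0.55) lowest. Of 8 upstream regulators 4 were lower and 0 higher. The shares of pathway genes called, 61.4% at 48 h and 84.1% here, stood beside 47.3% and 73.5% of all genes.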

How the data were processed

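Barcode by gene matrices of UMI counts, with antibody hashtag counts, were deposited by the authors for each pooled library. The labels name Cell Ranger 6.0.1, Seurat 5.1.0 and mm39, and the headers of the matrices used name Cell Ranger 8.0.1. Groups and mice came from the authors' hashtag lists, and the meaning of the C and N populations from the study's methods. For the reporter experiment 9 mice were listed, and 2 whose hashtags were nearly empty were left out. Cells with at least 200 genes and at most 10% mitochondrial UMIs were kept when the hashtag of 1 mouse exceeded its 0.99 quantile cutoff (HTODemux rule, Seurat 5.3.0). Cells with hashtags of several mice (507 to 2705 a library) were left out, and doublets within a mouse were not searched for. Counts were summed per mouse and tested with edgeR 4.0.16 (TMM, filterByExpr, quasi-likelihood test, R 4.3.3) with a term for the experiment in the time course and a block for the mouse in the reporter experiment, where both populations of a mouse share its name in the authors' list (residual correlation 0.11 to 0.42 in 7 of 7 pairs). Adjusted p-values are Benjamini-Hochberg over all genes tested, with 0.05 as threshold. A fold change is on the log2 scale from the edgeR fit at its default setting. The prior count of 2 was used for log2 CPM levels only. Phase and zone classes came from Seurat's CellCycleScoring and AddModuleScore, with at least 20 cells a mouse and phase and no minimum for zones. Cells with and without a Ccnd2 UMI were compared in mice with at least 10 cells with one. Shares were compared after thinning each cell to 3321 UMIs, the 10th percentile, and intervals are exact Clopper-Pearson intervals at 95%. Named were the members, the 3 largest rises and 3 largest falls of pathway genes that passed, at a mean log2 CPM above 3, in 3 comparisons, and the 3 genes most like each member at a mean log2 CPM above 4. UMI totals of 1984426 to 20883036 a mouse limit Ccnd2, which had 10 to 218 UMIs in a mouse, more than the other members. The members and gene lists were chosen with earlier results of these data known. The scripts were tested on simulated data. Alternatives were other scaling, filters, hashtag rules, DESeq2 1.42.0, depth and left-out mice. The fit on library totals, the fits within zones and the zone, phase and Ccnd2 comparisons by receptor pairing or treatment were added after seeing the data. Other pooled libraries and matrices of the series were not used here. The value of 1 pathway gene is not reported here.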

Additional observations from a re-analysis of the deposited data

Results flagged for a closer look

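The effect of anti-DEC-OVA differed between times for 2 members by a test of the difference itself (edgeR, 15 mice at 48 h and 15 at 72 h). For Cdk4 the effect at 72 h minus that at 48 h was -0.55 (log2) and for Ccnd3 it was -0.44. At 48 h the step between phase classes also differed between treated and untreated mice. From G1 to S the difference was -2.42 for Ccnd2 and 0.30 for Ccnd3, and from G1 to G2/M it was 0.47 for Ccnd3. In a search for single mice far from their group, which chance alone would meet in about 1 of 20 groups, 0 of 28 sets of values were singled out.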

How the results depend on the processing

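Values are log2 differences unless stated, and the cause of each change was not tested. Of 1946 alternatives to 84 results, 1816 kept direction and side of the threshold. Here, 48 h and 72 h stand for treated against untreated mice. Cells thinned to equal depth no longer passed for Cdk6 (0.18), Ccnd2 (-0.69) and Ccnd3 (0.063) at 48 h, for Ccnd2 from 48 to 72 h treated (0.46), and for Cdk6 (0.092) and Ccnd3 (0.070) at 48 h treated against 0 h, while Ccnd2 passed from 0 to 72 h untreated (1.28). Signs of uncalled values turned for Cdk6 from 48 to 72 h treated (0.048), Cdk4 (-0.10) and Ccnd3 (0.0071) from 0 to 48 h untreated, Cdk6 (-0.043) and Cdk4 (-0.033) from 0 to 72 h untreated, and Cdk6 (0.0015) and Ccnd2 (-0.19) for the effect at 72 h minus 48 h. Library totals lost Ccnd3 at 48 h (0.12) and against 0 h (0.11) and Cdk6 between CDK2hi and CDK2low (0.053), gained Ccnd2 at 48 h treated against 0 h (-0.80) and turned Cdk4 from 0 to 48 h untreated (-0.0027). Without a low-count filter Ccnd2 passed at 48 h treated (-0.74) and 72 h untreated (0.93) against 0 h. The change of Ccnd2 from 48 to 72 h treated no longer passed without a cell filter (0.80), with the highest hashtag (0.78) and in DESeq2 (0.76). With the highest hashtag Ccnd3 passed at 72 h treated against 0 h (-0.19). From 0 to 48 h untreated, Cdk4 turned without a cell filter (-0.016) and Ccnd3 turned with the highest hashtag (0.0095) and in B1-8hi cells alone (0.027), where Cdk6 no longer passed between zones (0.082). Without an experiment term Cdk6 (0.40) and Ccnd3 (0.19) at 48 h, Ccnd3 at 72 h (-0.28), Ccnd2 from 48 to 72 h treated (1.03), Cdk6 (0.33) and Ccnd3 (0.17) at 48 h treated against 0 h, and Cdk4 for the effect at 72 h minus 48 h (-0.58) no longer passed, and Cdk4 from 0 to 48 h untreated turned (-0.0014). With only the groups compared Ccnd2 passed at 48 h treated against 0 h (-0.72) and turned at 72 h treated against 0 h (-0.0026).

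In the larger experiment alone Ccnd3 no longer passed at 48 h (0.10) or against 0 h (0.081), Ccnd2 passed at 72 h (-2.09) and turned from 48 to 72 h treated (-0.72), at 72 h treated against 0 h (-1.19) and for the effect at 72 h minus 48 h (-0.91), and Cdk4 turned from 0 to 48 h (-0.039) and 0 to 72 h untreated (-0.019). In the smaller alone Cdk6 at 48 h (0.32) and against 0 h (0.21) and Ccnd3 at 72 h (-0.29) no longer passed, and Cdk6 from 48 to 72 h treated (0.11), Cdk4 at 72 h treated against 0 h (0.031) and Ccnd3 from 0 to 48 h untreated (0.052) turned. In shares of cells without thinning, in percentage points, Ccnd2 at 48 h (-1.003) and between CDK2hi and CDK2low (-1.59), Ccnd3 at 48 h (11.8) and Cdk6 at 72 h (5.52) passed, and Ccnd2 (-0.060) and Cdk6 (-11.1) from 48 to 72 h treated, Ccnd3 (1.19) and Cdk4 (1.88) at 72 h and Cdk6 between CDK2hi and CDK2low (-0.60) turned. Against values within G1 cells, all cells turned at 48 h for Cdk6 (0.39), Ccnd2 (-1.35) and Ccnd3 (0.18) and between CDK2hi and CDK2low for Cdk6 (0.25) and Ccnd2 (-1.36), and against S cells for Ccnd3 (-0.14). The spread of Ccnd2 was 51.3% in B1-8hi cells, 29.6% in the larger and 34.2% in the smaller experiment.

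Leaving out 1 mouse at a time gave Ccnd2 ranges of -0.85 to -0.52 at 48 h treated against 0 h, -0.23 to 0.34 at 72 h treated against 0 h, 0.50 to 1.03 from 48 to 72 h treated, -1.17 to -0.63 at 72 h and 0.80 to 1.13 from 0 to 72 h untreated. Ccnd2 at 48 h treated against 0 h passed without any 1 of 10 mice (M02, M04, M05, M14, M15, M17, M25, A1, A3 and E2, lowest adjusted p 0.0302 in edgeR), from 0 to 72 h untreated without M01, A2 or E2, and at 72 h without E2. The change from 48 to 72 h treated no longer passed without any 1 of M13 and M16 of the larger or C1, C2, C3, E1, E2 and E3 of the smaller experiment, and was lowest without E2. Ccnd3 ranged from -0.22 to -0.16 at 72 h treated against 0 h, where it passed without any 1 of 7 mice (M01, M09, M10, A2, C1, C2 and D3), and from -0.067 to 0.041 from 0 to 48 h untreated, Cdk4 from -0.047 to 0.038 in the latter, and Cdk6 from -0.0094 to 0.14 from 0 to 72 h untreated. At 48 h Ccnd2 stayed between -1.49 and -1.07 and passed each time.

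Without the replicate block for the mouse, the differences between CDK2hi and CDK2low were -1.39 for Ccnd2, -0.15 for Ccnd3, 0.74 for Cdk4 and 0.25 for Cdk6, and the block changed no call. No pairing of mice was used in the time course.

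Counts of genes higher and lower moved by over 1.5 times with thinning to 1595 and 1571 at 48 h, 200 and 233 at 72 h, 1364 and 1436 from 48 to 72 h treated, 1629 and 1583 at 48 h treated against 0 h, 115 and 91 from 0 to 72 h untreated, and 838 and 934 for the effect at 72 h minus 48 h. Without an experiment term the same order gave 1580 and 1100, 108 and 109, 1259 and 1845, 1842 and 1496, 47 and 30, and 438 and 784. The smaller experiment alone gave 1108 and 1041 at 48 h, 10 and 12 at 72 h, 1274 and 1387 from 48 to 72 h treated, 3 and 0 from 0 to 72 h untreated and 338 and 430 for the effect. With only the groups compared the count from 0 to 72 h untreated was 125 and 131, and in B1-8hi cells the effect gave 1032 and 892. Ccnd2, with 10 to 218 UMIs a mouse, is the member that depth limits most.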
